A study of Sus scrofa with 14 samples.

Results

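Iron, haem and siderophore genes were followed through 12 days of culture of pig heart slices. The set holds 10 genes, chosen by name with earlier results of these data in view: LCN2, TCN1, FTH1, FTL, TFRC, HMOX1, SLC40A1, SLC39A14, CP and HAMP. Of these, 7 had an entry among the 13644 genes of the expression table, 6 by the symbol in the table and LCN2 through the reference name of its identifier. All 7 were among the 11527 genes with at least 1 FPKM (fragments scaled to transcript length and to the total of the library) in at least 2 libraries, while no entry was matched to FTH1, CP or HAMP, which were not analysed here. RNAseq was made from 14 libraries of left ventricular slices of female Yorkshire pigs, 3 months of age. MT slices (2 libraries) were paced and stretched for 12 days in the cardiac tissue culture model (CTCM), a chamber that mimics the filling and contraction of the heart, with the thyroid hormone T3 at 100 nM and the synthetic glucocorticoid dexamethasone (Dex) at 1 µM. MC slices (2 libraries) had the same 12 days of CTCM, and the study describes their medium as its earlier one, with no T3 or Dex added. Their group label names neither. A treatment entry shared by all 14 samples, D0 included, names both agents, and the group label of MT-2 names T4 in place of T3. TD slices (4 libraries) were kept in static, electrically paced culture with T3 and Dex at the same doses, and Ctrl slices (4 libraries) in the same static culture without them. D0 slices (2 libraries) were fresh, uncultured tissue. All cultured slices shared a medium with serum, growth factors and a supplement of insulin, transferrin and selenium, so an iron carrier was present in every culture. The pig behind each library is not named by the sources at hand, so errors and p-values measure only the spread between these libraries, which may be technical.

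Cells take up iron mainly as transferrin bound to its receptor, store it in ferritin, and release it through ferroportin, while haem is broken open by haem oxygenase to give iron, carbon monoxide and bile pigment. When iron is scarce, iron regulatory proteins bind hairpins in the mRNAs, called iron responsive elements, which blocks translation of ferritin and ferroportin and stabilizes the mRNA of the transferrin receptor. In infection and injury, lipocalin 2 sequesters iron by binding the siderophores with which bacteria scavenge it. Lipocalin 2 and transcobalamin 1 are both stored in the specific granules of neutrophils and made by secretory epithelia, and in the heart much of the iron released from dead cells and blood passes through macrophages.

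The iron responsive elements of the measured members were located in the RefSeq annotation of Sscrofa11.1, the build to which the authors aligned their reads, because they mark which of the genes hold the hairpin. Each sequence is given in the sense of its mRNA as 30 bases, with the CAGTGN loop in capitals. The hairpin sought was the loop letters CAGTGN (not CAGTGG) closed by a stem of 5 base pairs, with an unpaired C on the 5′ side below it and at least 3 of the next 4 bases paired. FTL (chr6:54231194-54231223, plus strand) and SLC40A1 (chr15:94161659-94161688, minus strand) each held 1 in the 5′ UTR, and TFRC held 4 (chr13:133998466-133998495, chr13:133998876-133998905, chr13:133998941-133998970 and chr13:133998988-133999017, plus strand). The annotated 3′ UTR of the TFRC transcript is only 53 bases long, so its 4 hairpins were found in the 2000 bases past the annotated end.
FTL 5′ UTR: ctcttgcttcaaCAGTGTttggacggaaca
SLC40A1 5′ UTR: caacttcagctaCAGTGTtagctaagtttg
TFRC hairpin 1: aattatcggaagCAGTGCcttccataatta
TFRC hairpin 2: cattatcgggagCAGTGTcttccataatgt
TFRC hairpin 3: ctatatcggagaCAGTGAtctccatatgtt
TFRC hairpin 4: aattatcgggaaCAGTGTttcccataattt
Such a hairpin stands in 8 of 16406 annotated 5′ UTRs (0.0488%), 12 of 17963 3′ UTRs (0.0668%) and 18 of 20620 windows past the annotated end (0.0873%), and none of the other windows held more than 1. LCN2, TCN1, HMOX1 and SLC39A14 had no match in these windows. A match is a description of letters and was not tested as a binding site.

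Before the members' values, the libraries themselves need description. Summed FPKM ranged between 287151 and 458928 per library, and relative depth, read from the FPKM step that 1 read makes, between 0.470 and 1.201 times that of D0-1. The MT libraries list 852 and 1316 of the tested genes at 0, against 44 to 313 in the other 12 libraries and a zero there may be a failed estimate as well as a low level. The summed FPKM of 6 cardiomyocyte markers lay between 113 and 292 in MT, between 28.8 and 41.0 in MC, between 2.76 and 11.2 in TD and between 5.78 and 10.5 in Ctrl, against 352 to 427 in D0. In bulk slices, fewer cells of a type and less RNA per cell cannot be told apart. Some targets of glucocorticoids stood higher in the libraries labelled MC than in Ctrl. FKBP5, a chaperone induced by glucocorticoids, had 55.6 and 51.9 FPKM in MT, 79.8 and 64.5 in MC and 74.6, 79.9, 89.4 and 73.1 in TD, against 19.9, 17.4, 31.1 and 32.6 in Ctrl and 22.9 and 23.0 in D0. It was higher in MC than in Ctrl by 1.52 ± 0.23 on the log2 scale (limma, adjusted p = 0.00321), and 2 of 8 such targets (FKBP5 and TSC22D3), chosen after seeing the data, were called higher in that comparison, beside 2.30% of all tested genes. The other targets were not called there, and PER1, a clock gene, had 15.7 and 4.69 FPKM in MC, against 32.1, 16.1, 24.4 and 19.9 in Ctrl. Whether the MC medium held Dex was not tested.

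The neutrophil granule protein lipocalin 2, LCN2 (ENSSSCG00000005638, chromosome 1, 268609975 to 268614651), was the member with the largest difference from D0 in Ctrl, while in MT, MC and TD the ratio of means to D0 was larger for TCN1. LCN2 had 38.8 and 66.1 FPKM in MT, 32.4 and 51.7 FPKM in MC, 52.3, 38.0, 58.7 and 71.9 FPKM in TD and 57.4, 83.1, 76.2 and 76.0 FPKM in Ctrl, against 4.26 and 5.12 FPKM in D0. Every cultured library lay above both D0 libraries, and the lowest of them was MC-1. Mean levels were 52.5 ± 19.3 FPKM in MT (SD, n = 2), 42.0 ± 13.6 in MC (n = 2), 55.2 ± 14.1 in TD (n = 4) and 73.2 ± 11.05 in Ctrl (n = 4), against 4.69 ± 0.602 in D0 (n = 2), which made LCN2 11.2, 8.96, 11.8 and 15.6 times as high as in D0. On the log2(FPKM + 1) scale the differences over D0 were 3.19 ± 0.32 in MT, 2.89 ± 0.32 in MC, 3.27 ± 0.28 in TD and 3.70 ± 0.28 in Ctrl (± SE). In Ctrl this was the 5th largest rise of the 11527 tested genes, and in MT the 23rd. The conditions ordered Ctrl, TD, MT, MC and D0 by mean, and of these neighbours only MC and D0 did not overlap. Both MC libraries lay below all 4 Ctrl libraries, with a difference of -0.81 ± 0.28.

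The recovered read numbers behind the LCN2 values were 1316 and 1486 in MT, 1076 and 1094 in MC, 1893, 2057, 2688 and 2809 in TD and 1963, 4143, 3510 and 3036 in Ctrl, against 192 and 209 in D0, each within 0.02 of a whole number. The genes whose log2 profile over the 14 libraries was most like that of LCN2 were the fructose transporter SLC2A5 (r = 0.986), the lysosomal protease CTSH (r = 0.965) and the cell cycle inhibitor CDKN1A (r = 0.964). These r describe 14 libraries of 5 conditions that share the D0 contrast, and no test was made.

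The cobalamin carrier transcobalamin 1, TCN1 (ENSSSCG00000039252, chromosome 2, 11633377 to 11646261), separated the conditions in a second way. TCN1 had 11.2 and 12.4 FPKM in MT, 12.2 and 15.4 FPKM in MC and 12.2, 8.999, 11.4 and 13.6 FPKM in TD, with 1.43, 2.66, 1.46 and 1.72 FPKM in Ctrl and 0.223 and 0.405 FPKM in D0. The MT, MC and TD libraries formed 1 range from 8.999 to 15.4 FPKM that lay above every Ctrl library, and every Ctrl library lay above both D0 libraries. Mean TCN1 was 11.8 ± 0.871 FPKM in MT, 13.8 ± 2.27 in MC, 11.5 ± 1.91 in TD and 1.82 ± 0.574 in Ctrl, against 0.314 ± 0.129 in D0. These are 37.5, 43.8, 36.7 and 5.79 times the D0 mean, and TD stood at 6.35 times and MC at 7.57 times the Ctrl mean. The log2 differences were 2.16 ± 0.17 for TD over Ctrl, 2.40 ± 0.21 for MC over Ctrl and -0.20 ± 0.24 for MT over MC. The fitted interaction of CTCM and T3/Dex was -2.36 ± 0.29 and depends on the level of the MC libraries, which lay near TD and MT rather than near Ctrl.

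TCN1 was counted in few reads in fresh tissue. The recovered read numbers were 640 and 471 in MT, 683 and 550 in MC, 747, 823, 886 and 896 in TD and 83, 224, 114 and 116 in Ctrl, against 17 and 28 in D0. With so few reads in D0, the fold over D0 depends on the pseudocount, and with 0.1 in place of 1 the difference of TD over D0 became 4.83, against 3.25, and that of Ctrl over D0 became 2.20, against 1.08. The profiles most like TCN1 over the 14 libraries were those of ALOX5AP, which activates leukotriene synthesis (r = 0.989), the monooxygenase FMO1 (r = 0.983) and the interleukin 1 decoy receptor IL1R2 (r = 0.979).

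**Figure D1:**
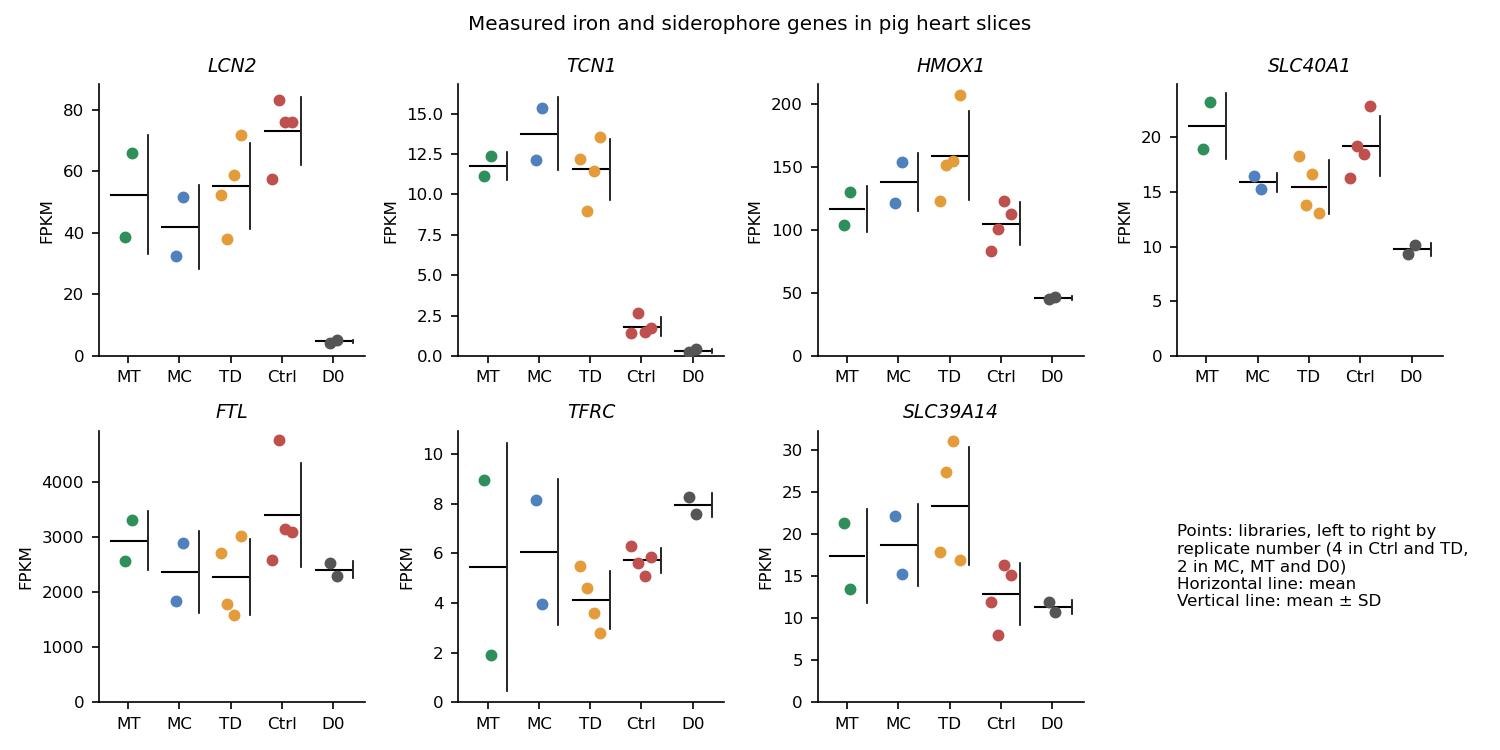
FPKM of the 7 measured members in each library (points, by replicate number), by condition in the order MT, MC, TD, Ctrl and D0, with the mean (horizontal line) and SD (vertical line). All 12 cultured libraries lie above D0 for LCN2, TCN1, HMOX1 and SLC40A1, and TCN1 separates MT, MC and TD (8.999 to 15.4 FPKM) from Ctrl (1.43 to 2.66 FPKM). The share of all tested genes that separate in these ways was not counted.

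The haem-degrading enzyme haem oxygenase 1, HMOX1 (ENSSSCG00000039745), which the assembly places on an unplaced scaffold, was also higher in every culture. HMOX1 had 104 and 129.9 FPKM in MT, 122 and 154 FPKM in MC, 123, 152, 155 and 208 FPKM in TD and 83.0, 101, 123 and 113 FPKM in Ctrl, against 45.1 and 47.2 FPKM in D0. No cultured library reached down to the D0 range. The means were 2.53 times that of D0 in MT, 2.99 times in MC, 3.45 times in TD and 2.27 times in Ctrl, and the log2 differences over D0 were 1.31 ± 0.25, 1.55 ± 0.25, 1.74 ± 0.22 and 1.15 ± 0.22. The 4 TD libraries lay above the 4 Ctrl libraries by a narrow margin, with a log2 difference of 0.59 ± 0.18 that was not called. Its nearest profiles were NDUFA4L2, a mitochondrial protein induced in hypoxia, CD14, the endotoxin co-receptor of monocytes and macrophages, and the transglutaminase F13A1, each with r = 0.950.

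Ferroportin, SLC40A1 (ENSSSCG00000027157, chromosome 15, 94140635 to 94161793), the exporter of iron from cells and the carrier of the 5′ hairpin printed above, had 18.9 and 23.2 FPKM in MT, 16.5 and 15.3 FPKM in MC, 18.3, 13.8, 16.7 and 13.1 FPKM in TD and 16.2, 19.1, 18.5 and 22.9 FPKM in Ctrl, against 9.30 and 10.2 FPKM in D0. All cultured libraries were above D0, and both MT libraries were above both MC libraries and, narrowly, above the 4 TD libraries. As a share of the summed FPKM, TD-4 (0.0032%) and MC-2 (0.00333%) stood close to D0-2 (0.00315%). On that scale MT-1 (0.00458%) lay below MC-1 (0.00479%) and TD-3 (0.0058%). The means were 21.0 ± 3.03 FPKM in MT, 15.9 ± 0.853 in MC, 15.4 ± 2.45 in TD and 19.2 ± 2.75 in Ctrl, against 9.74 ± 0.614 in D0. The log2 differences over D0 were 1.03 ± 0.20 in MT, 0.65 ± 0.20 in MC, 0.60 ± 0.17 in TD and 0.90 ± 0.17 in Ctrl. Differences between cultures were smaller than those over D0, with 0.38 ± 0.20 for MT over MC and 0.43 ± 0.17 for MT over TD. The nearest profiles of SLC40A1 were PPP1R21 (r = 0.942), the endoplasmic reticulum chaperone HSPA13 (r = 0.931) and the heparan sulfate proteoglycan SDC2 (r = 0.927).

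**Figure D2:**
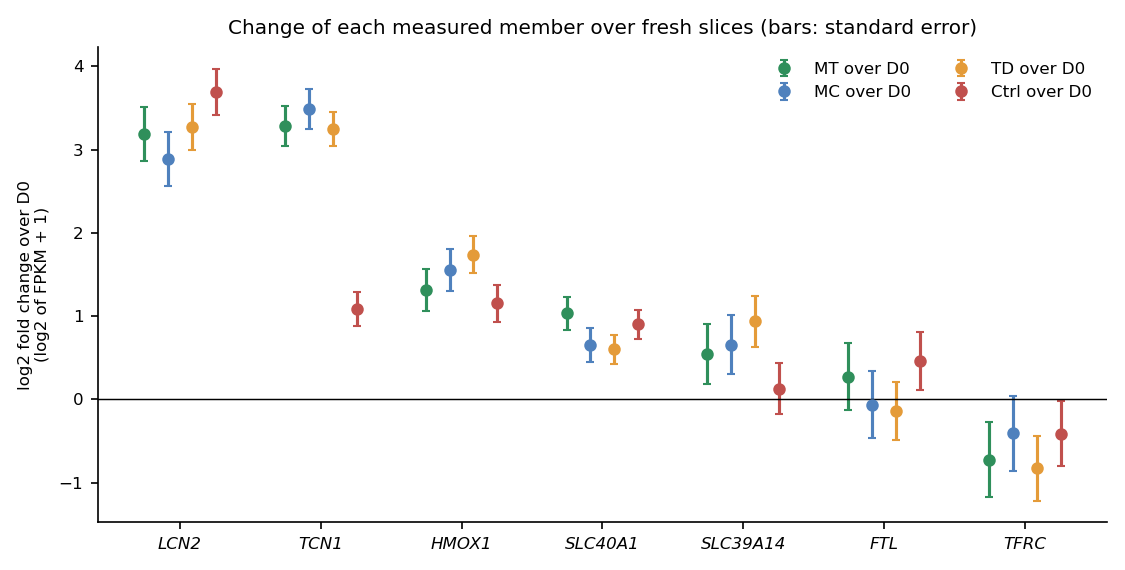
Difference of each measured member over D0 on the log2(FPKM + 1) scale (points) with its standard error (bars) in MT, MC, TD and Ctrl. LCN2 lies between 2.89 and 3.70 in all 4 conditions, TCN1 between 3.25 and 3.48 in MT, MC and TD but at 1.08 in Ctrl, while FTL lies between -0.14 and 0.46 and TFRC between -0.83 and -0.41.

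The ferritin light chain, FTL (ENSSSCG00000003153, chromosome 6, 54231121 to 54232756), the subunit of the iron store that carries the other 5′ hairpin, was by far the most abundant member. FTL had 2561 and 3322 FPKM in MT, 1843 and 2895 FPKM in MC, 2706, 1779, 1597 and 3021 FPKM in TD and 2591, 4772, 3156 and 3103 FPKM in Ctrl, against 2528 and 2301 FPKM in D0. It ranked 21st in both MT libraries, 27th and 28th in MC, 18th to 27th in TD and 4th to 6th in Ctrl among all genes of a library, against 11th and 13th in D0. MC and TD overlapped D0, and the MT and Ctrl libraries lay above it, MT-1 and Ctrl-1 narrowly and Ctrl-2 the furthest. The log2 differences over D0 were 0.27 ± 0.40 in MT, -0.06 ± 0.40 in MC, -0.14 ± 0.35 in TD and 0.46 ± 0.35 in Ctrl, each smaller than 1.5 times its standard error. The nearest profiles of FTL were the prostaglandin E synthase PTGES (r = 0.952), NDFIP1, an adaptor of ubiquitin ligases (r = 0.943), and CIB2 (r = 0.906). Ferritin genes have processed copies in mammals, and the sources at hand do not say how reads shared with such copies were counted.

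The transferrin receptor, TFRC (ENSSSCG00000011848, chromosome 13, 133976765 to 133997554), with the 4 hairpins past the annotated end of its transcript, had 8.97 and 1.92 FPKM in MT, 8.13 and 3.97 FPKM in MC, 5.50, 4.61, 3.61 and 2.80 FPKM in TD and 6.31, 5.60, 5.10 and 5.86 FPKM in Ctrl, against 8.27 and 7.59 FPKM in D0. TD and Ctrl lay below D0 in every library, while MT and MC each had 1 library above or within the D0 range and 1 far below it. The log2 differences over D0 were -0.73 ± 0.45 in MT, -0.41 ± 0.45 in MC, -0.83 ± 0.39 in TD and -0.41 ± 0.39 in Ctrl. In MT the sign rests on the second library, since the difference was 0.16 without MT-2 and -1.61 without MT-1. In MC it was 0.033 without MC-2 and -0.85 without MC-1. The recovered reads of TFRC were 916 in MT-1 and 130 in MT-2, at relative depths of 0.753 and 0.499. The nearest profiles of TFRC were the phosphatase subunit PPP2R3A (r = 0.943), KBTBD2 (r = 0.934) and PLEKHA1 (r = 0.913).

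The metal transporter SLC39A14 (ENSSSCG00000032622, chromosome 14, 6639485 to 6687929), which takes up iron that is not bound to transferrin, had 21.4 and 13.5 FPKM in MT, 22.2 and 15.3 FPKM in MC, 17.9, 27.5, 31.1 and 16.9 FPKM in TD and 12.0, 8.08, 16.4 and 15.2 FPKM in Ctrl, against 12.0 and 10.7 FPKM in D0. Ctrl overlapped D0, and the MT, MC and TD libraries lay above it in FPKM. As a share of the summed FPKM, MT-2 (0.00294%) and MC-2 (0.00333%) did not lie above D0 (0.00341% and 0.00333%). The log2 differences over D0 were 0.55 ± 0.35 in MT, 0.65 ± 0.35 in MC, 0.94 ± 0.31 in TD and 0.13 ± 0.31 in Ctrl, and that of TD over Ctrl was 0.81 ± 0.25. The nearest profiles were ZBTB16, a transcription factor induced by glucocorticoids (r = 0.948), the calcium channel ITPR1 (r = 0.935) and FAM155B (r = 0.918).

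The spread of FTL and SLC39A14 within a condition moved with a property of the library. In TD, the libraries TD-1 and TD-4 had summed FPKM of 444246 and 409531, with 2706 and 3021 FPKM of FTL and 17.9 and 16.9 FPKM of SLC39A14. TD-2 and TD-3 had summed FPKM of 309328 and 287151, with 1779 and 1597 FPKM of FTL and 27.5 and 31.1 FPKM of SLC39A14. MT-2 and MC-2, the libraries with the larger sum of their pair, had the higher FTL and the lower SLC39A14, and Ctrl-2, with the largest sum of the Ctrl libraries (349686), had the highest FTL and the lowest SLC39A14 of that condition. The other Ctrl libraries did not follow this for SLC39A14, which had 12.0, 15.2 and 16.4 FPKM at sums of 300658, 304524 and 319240. In D0, the library with the larger sum, D0-1, had the higher value of both genes. TFRC was lower in MT-2 and MC-2 as well, but in TD and Ctrl its order did not follow the sum. The part of this property in the differences between conditions was not tested. As a share of the summed FPKM, FTL made up 0.621% and 0.726% in MT, 0.536% and 0.631% in MC, 0.609%, 0.575%, 0.556% and 0.738% in TD and 0.862%, 1.36%, 0.988% and 1.02% in Ctrl, against 0.721% and 0.712% in D0.

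**Figure D3:**
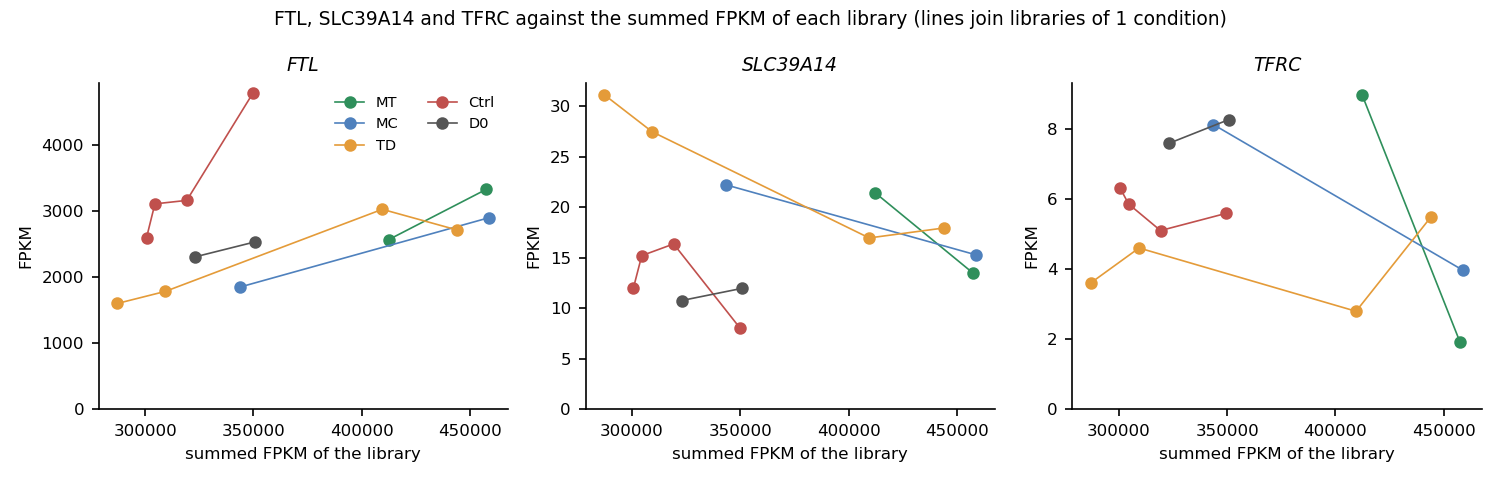
FPKM of FTL, SLC39A14 and TFRC in each library against the summed FPKM of that library, with lines joining the libraries of 1 condition. FTL is higher and SLC39A14 lower in TD-1 and TD-4 than in TD-2 and TD-3, and likewise in MT-2 against MT-1 and MC-2 against MC-1.

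The members were set against all tested genes in 1 limma fit of the 14 libraries, with p-values adjusted over the 11527 genes and a gene called at an adjusted p under 0.05. Since the members were chosen with results of these data known, no p-value is given for them and nothing is read from their counts. LCN2, TCN1, HMOX1 and SLC40A1 were the 4 of 7 called higher than D0 in each of the 4 cultures. The shares of all tested genes called higher than D0 were 9.38% in MT, 6.34% in MC, 5.01% in TD and 3.50% in Ctrl, and those called lower were 18.1% in MT, 11.3% in MC, 8.90% in TD and 4.95% in Ctrl. No member was called lower than D0, also at an unadjusted p under 0.05 from limma. Between cultures, TCN1 was the member called higher in TD over Ctrl, where 1.26% of all genes were called higher and 2.22% lower, and in MC over Ctrl, where 2.30% were higher and 4.16% lower. In the interaction TCN1 was called lower, beside 2.06% of all genes higher and 2.60% lower. For MT over MC, 0.885% of all genes were called higher and 2.31% lower, and for MT over TD 2.99% and 7.14%, with no member called in either comparison by limma. At an unadjusted p under 0.05 from limma 0 members passed in MT over MC and 1 in MT over TD. Here and below, the share of all tested genes at this unadjusted cut was not counted, so nothing is read from such counts. The median log2 difference of the 7 members over D0 was 1.03 in MT, 0.65 in MC, 0.94 in TD and 0.90 in Ctrl, beside -0.11, -0.05, -0.02 and -0.02 over all tested genes.

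Other genes of iron handling, not members of the set, were tested in the same fit as a list of 65 genes, of which 49 had an entry and 45 passed the filter. Against D0, 8 of the 45 were called higher and 2 lower in MT, 6 higher and 3 lower in MC, 6 higher and 2 lower in TD and 4 higher and 1 lower in Ctrl. The median log2 difference of the list was 0.17 in MT, 0.09 in MC, 0.13 in TD and -0.03 in Ctrl. Of all tested genes, 9.38% were called higher and 18.1% lower in MT, and 6.34% and 11.3% in MC. In TD these shares were 5.01% and 8.9%, and in Ctrl 3.5% and 4.95%. Most iron genes, like most tested genes, did not pass in these comparisons. Calls over D0 fell in each role of the list except export and haem breakdown.

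**Figure D4:**
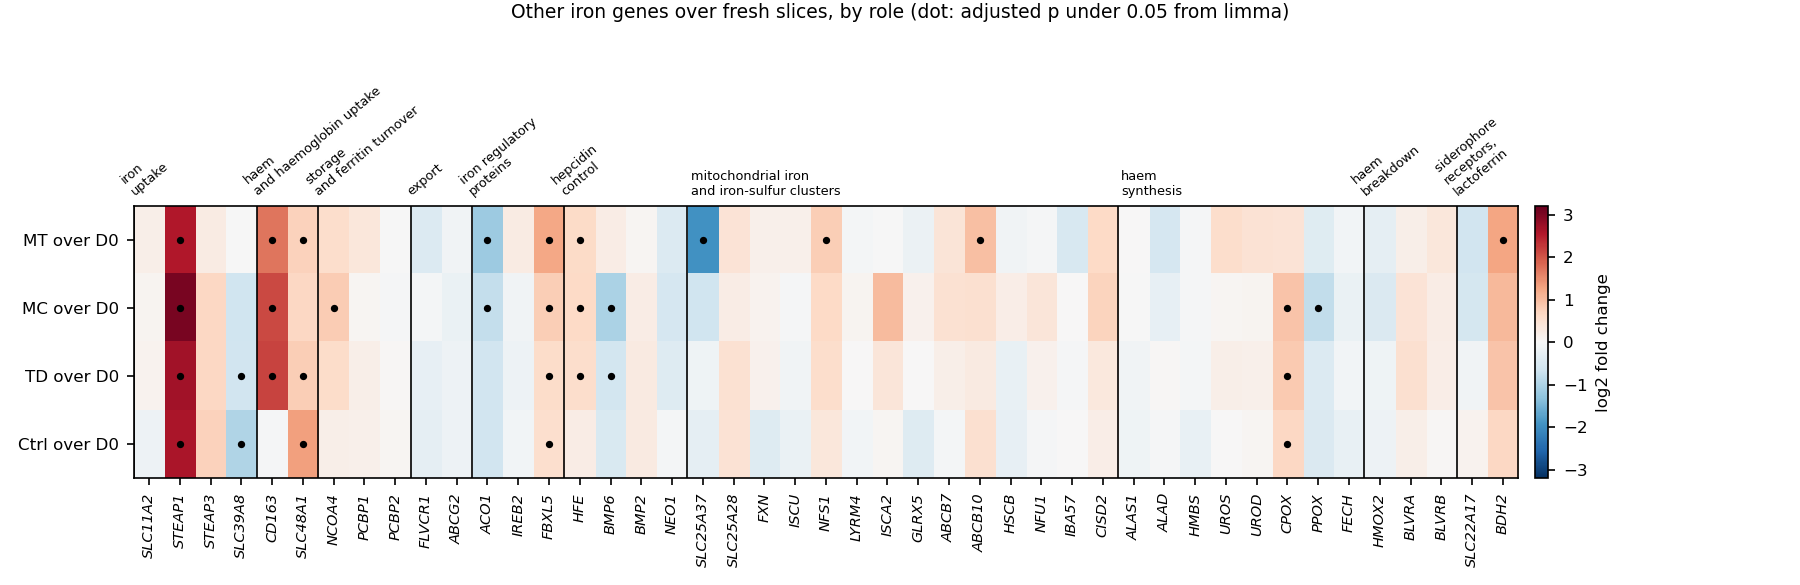
Log2 difference over D0 of the 45 tested iron genes that are not members (columns, by role) in MT, MC, TD and Ctrl (rows, top to bottom), with a dot where the adjusted p from limma was under 0.05. STEAP1 is higher in all 4 rows, at 2.55 to 3.03, and CD163 is higher in MT, MC and TD (1.72 to 2.16) but at -0.04 in Ctrl.

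In iron and haem uptake, STEAP1, of a family with members that reduce iron for transport, rose in all 4 cultures. Whether STEAP1 itself reduces iron here was not tested. STEAP1 had 30.5 and 12.4 FPKM in MT, 19.5 and 39.1 in MC, 27.7, 15.4, 16.8 and 29.5 in TD and 16.4, 19.6, 24.8 and 21.9 in Ctrl, against 1.98 and 3.12 in D0. The log2 changes were 2.55 ± 0.43 in MT (limma, adjusted p = 0.00105), 3.03 ± 0.43 in MC (0.00047), 2.68 ± 0.37 in TD (0.000272) and 2.61 ± 0.37 in Ctrl (0.000655). When MT and D0 were fitted without the other groups, the call was lost (0.0607). The haem transporter SLC48A1 rose by 0.73 ± 0.24 in MT (adjusted p = 0.0389), 0.78 ± 0.21 in TD (0.023) and 1.32 ± 0.21 in Ctrl (0.00139), while in MC it had 13.6 and 14.8 FPKM, against 8.90 and 8.34 FPKM in D0 (0.078). Its call in TD was lost without D0-1, D0-2, TD-3 or TD-4, and with TPM or the replicate block (limma, adjusted p = 0.149 and 0.0741). The metal importer SLC39A8, a relative of SLC39A14, was at 2.25 and 1.97 FPKM in MT, 1.33 and 0.751 in MC, 1.34, 0.944, 1.17 and 0.771 in TD and 0.563, 0.806, 0.545 and 0.524 in Ctrl, against 1.80 and 2.50 in D0. It fell in TD by 0.62 ± 0.18 (adjusted p = 0.0382) and in Ctrl by 0.96 ± 0.18 (0.0042) on the log2 scale. The Ctrl call was lost without D0-2 and the TD call without any of 8 libraries, among them both of D0. A pseudocount of 0.1, TPM, the compared groups alone and the replicate block also lost the TD call (limma, adjusted p up to 0.173).

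CD163, the macrophage receptor that takes up haemoglobin bound to haptoglobin, resembled TCN1 in its step from Ctrl to MT, MC and TD. Unlike TCN1, CD163 in Ctrl overlapped D0. CD163 had 16.6 and 23.7 FPKM in MT, 31.3 and 22.02 in MC and 23.6, 30.01, 35.5 and 21.97 in TD, with 4.06, 3.01, 6.25 and 8.69 in Ctrl and 5.55 and 5.12 in D0. It was the 1 iron gene of the 45 called in TD over Ctrl, with a log2 change of 2.20 ± 0.26 (limma, adjusted p = 0.000352), and the 1 called in MC over Ctrl, with 2.15 ± 0.31 (0.00278). In these comparisons no iron gene was called lower, and 7 and 9 of the 45 had an unadjusted p under 0.05 from limma in either direction. The share of all tested genes at that unadjusted cut was not counted. By the adjusted p, 1.26% of them were called higher and 2.22% lower in TD over Ctrl, and 2.3% and 4.16% in MC over Ctrl. CD163 rose over D0 by 1.72 ± 0.36 in MT (0.00426), 2.11 ± 0.36 in MC (0.00173) and 2.16 ± 0.31 in TD (0.000408). The MT call was lost with limma arrayWeights or after rescaling to TPM (up to 0.103). Its interaction of CTCM and T3/Dex was -2.59 ± 0.44 (0.00593), lost with limma arrayWeights (0.228). Like that of TCN1 it depends on the level of the MC libraries, which lay near TD and MT rather than near Ctrl, and the cause was not tested.

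Macrophage and neutrophil markers were read beside TCN1, LCN2, HMOX1 and CD163. The sum of 9 macrophage markers lay between 249 and 357 FPKM in MT, 274 and 323 in MC, 282 and 327 in TD and 218 and 277 in Ctrl, against 262 and 277 in D0. Single markers of this list went different ways. MRC1, the mannose receptor, had 8.69 and 9.67 FPKM in MT, 12.3 and 9.51 in MC, 11.01, 11.5, 14.9 and 8.001 in TD and 3.39, 2.26, 4.18 and 4.96 in Ctrl, against 3.39 and 2.92 in D0. CD14 was at 4.15, 4.56, 5.87 and 3.01 times its D0 mean in MT, MC, TD and Ctrl. The growth factor receptor CSF1R was at 0.314, 0.460, 0.832 and 0.760 times its D0 mean in the same order, and the complement subunit C1QB at 0.729, 0.706, 0.723 and 0.604 times. Of 11 neutrophil markers 5 had an entry, and their sum, in which the protease MMP9 was the largest part, lay between 197 and 259 FPKM in MT, 159 and 212 in MC, 191 and 241 in TD and 319 and 394 in Ctrl, against 120.3 and 137 in D0. Lactoferrin, LTF, which is stored in the same neutrophil granules as LCN2 and TCN1, was listed at 0 in every MT, TD and Ctrl library and in MC-2, at 0.121 FPKM in MC-1 and at 0.0796 and 0.0767 FPKM in D0. The elastase ELANE was at 0 in both MT libraries and between 1.05 and 3.40 FPKM elsewhere. The calgranulin S100A8 of neutrophils and monocytes had 21.9 and 57.2 FPKM in MT, 24.2 and 35.1 in MC, 67.5, 18.6, 9.99 and 32.9 in TD and 12.5, 19.1, 12.2 and 12.9 in Ctrl, against 5.70 and 5.10 in D0. The part of changes in cell content in the values of LCN2 and TCN1 was not tested. Of the red cell markers, HBB was at 0 in all cultured libraries and at 0.565 and 0 FPKM in D0, and HBM was at or under 3.33 FPKM everywhere.

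**Figure D5:**
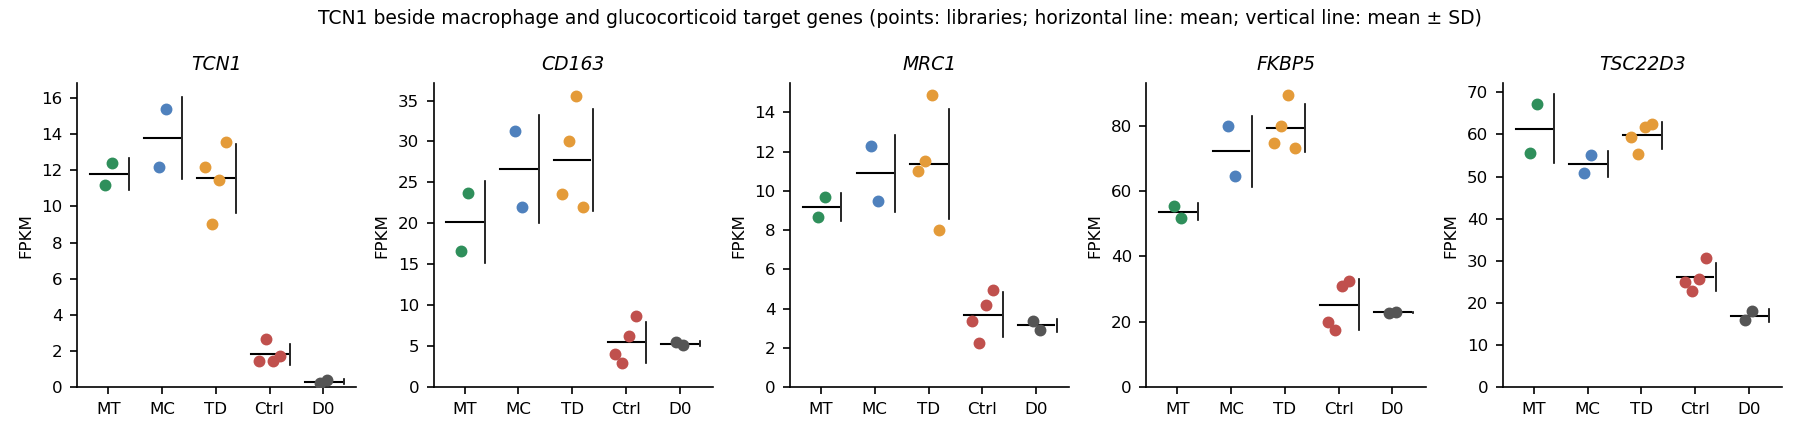
FPKM of TCN1, the macrophage receptors CD163 and MRC1 and the glucocorticoid targets FKBP5 and TSC22D3 in each library (points) by condition in the order MT, MC, TD, Ctrl and D0, with mean and SD. All 5 genes are higher in each MT, MC and TD library than in any Ctrl library. The markers and targets are part of longer lists, in which PER1 and CSF1R, among others, did not follow this order. The study describes MC as cultured without added Dex, while the treatment entry shared by all samples names it.

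Among genes of ferritin turnover and iron sensing, FBXL5, the iron-sensing ligase subunit that removes iron regulatory protein 2, rose in all 4 cultures. FBXL5 had 16.7 and 17.97 FPKM in MT, 12.3 and 12.4 in MC, 12.8, 9.37, 9.78 and 11.01 in TD and 9.40, 11.5, 9.86 and 10.8 in Ctrl, against 6.61 and 6.96 in D0. The log2 changes were 1.23 ± 0.17 in MT (limma, adjusted p = 0.000329), 0.78 ± 0.17 in MC (0.00821), 0.58 ± 0.15 in TD (0.0189) and 0.55 ± 0.15 in Ctrl (0.0394). The Ctrl call was lost without any of 8 libraries, both of D0, all 4 of Ctrl and both of MC (up to 0.317). MT was also above TD, by 0.65 ± 0.15 (0.0177), which was lost without MT-2 (0.0501), with TPM, limma arrayWeights, the compared groups alone and the replicate block (up to 0.288). ACO1, which is iron regulatory protein 1 when it lacks its iron-sulfur cluster, had 14.9 and 8.21 FPKM in MT and 15.2 and 14.8 in MC, against 26.2 in both D0 libraries. It fell by 1.17 ± 0.25 in MT (0.00423, and 0.0986 when MT and D0 were fitted without the other groups) and by 0.76 ± 0.25 in MC (0.0489), where leaving out any of 11 libraries, D0-1 and D0-2 among them, lost the call (up to 0.197). NCOA4, the receptor that delivers ferritin to the lysosome, had 29.8 and 30.5 FPKM in MC, against 16.3 and 17.3 in D0, a rise of 0.81 ± 0.23 (0.0309). That call was lost without D0-1, D0-2, MC-1 or MC-2, and with TPM or the replicate block (limma, adjusted p = 0.157 and 0.0666).

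In the control of hepcidin, the hormone that degrades ferroportin, the ligand BMP6 had 1.28 and 1.49 FPKM in MT, 0.185, 0.554, 0.371 and 0.263 in TD and 0.562, 0.359, 0.593 and 0.291 in Ctrl, against 1.01 and 1.02 in D0, and was listed at 0 in both MC libraries. BMP6 was called lower than D0 in MC (limma, adjusted p = 0.00228) and in TD, where it fell by 0.59 ± 0.16 (0.0226). BMP6 lost the TD call without D0-1, D0-2, TD-1 or TD-4, and with a pseudocount of 0.1, TPM or the replicate block (up to 0.0968). It was called higher in MT than in MC (0.0033) and than in TD, by 0.83 ± 0.16 (0.00656), and both calls were lost with limma arrayWeights and when the compared groups were fitted without the others (up to 0.682 and 0.41). BMP6 was the 1 iron gene called in MT over MC, where none was called lower. There 7 of 45 iron genes had an unadjusted p under 0.05 from limma. By the adjusted p, 0.885% of all tested genes were called higher in MT over MC and 2.31% lower. HFE, which partners the transferrin receptors, rose in MT by 0.61 ± 0.20 (0.0362), in MC by 0.63 ± 0.20 (0.0427) and in TD by 0.55 ± 0.17 (0.0488), calls lost without either D0 library and without 4, 7 and 8 of the others taken singly (limma, up to 0.404).

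In the mitochondria, the importer of iron SLC25A37 had 1.67 and 0 FPKM in MT, 4.67 and 1.91 in MC, 4.28, 5.50, 4.80 and 4.30 in TD and 5.24, 2.85, 5.64 and 3.48 in Ctrl, against 5.06 and 5.50 in D0. It was called lower in MT than in D0 (limma, adjusted p = 0.00475, and up to 0.11 with limma arrayWeights or with those groups alone in the fit) and than in TD (0.00877, and 0.0582 without MT-2, where it is listed at 0, and up to 0.258 with arrayWeights or those groups alone). ABCB10, the inner membrane transporter that stabilizes SLC25A37, had 8.75 and 11.3 FPKM in MT, against 5.32 and 3.98 in D0, a rise of 0.96 ± 0.19 (0.00322). It was also above TD by 0.67 ± 0.17 (0.0256), a call lost without TD-2 or MT-2 (up to 0.106) and with TPM, limma arrayWeights, the compared groups alone and the replicate block (up to 0.433). Of the 14 tested genes of mitochondrial iron and iron-sulfur clusters, 2 were called higher and 1 lower than D0 in MT. None was called in MC, TD or Ctrl. Of all tested genes, 9.38% were called higher and 18.1% lower in MT, and 6.34% and 11.3% in MC. In TD these shares were 5.01% and 8.9%, and in Ctrl 3.5% and 4.95%. Nothing particular to MT is read from these counts. In haem synthesis, coproporphyrinogen oxidase, CPOX, had 11.04 and 13.4 FPKM in MC, 10.4, 10.9, 11.01 and 14.2 in TD and 9.42, 10.7, 10.4 and 10.1 in Ctrl, against 5.97 and 6.09 in D0. It rose by 0.91 ± 0.21 in MC (0.00968), 0.84 ± 0.18 in TD (0.00649) and 0.66 ± 0.18 in Ctrl (0.0358). These calls were lost without D0-1 or D0-2, the Ctrl call also without any Ctrl library and the MC call without MC-2. Rescaling to TPM lost the Ctrl and MC calls (limma, adjusted p = 0.0658 and 0.0904), and the replicate block the Ctrl and TD calls (0.189 and 0.0536). The next enzyme, PPOX, had 7.10 and 9.15 FPKM in MC, against 14.2 and 15.3 in D0, a fall of 0.80 ± 0.25 (0.0407) that was lost without any of 6 libraries, both of D0 among them (up to 0.19). BDH2, an enzyme linked to the making of a mammalian siderophore, had 8.09 and 18.9 FPKM in MT, against 4.002 and 5.27 in D0, a rise of 1.26 ± 0.35 (0.0171) that was lost without D0-1, D0-2 or MT-2 (up to 0.133). SLC22A17, a receptor for lipocalin 2, was called in none of the 4 comparisons with D0 (limma, adjusted p = 0.0745, 0.124, 0.797 and 0.923 in MT, MC, TD and Ctrl). It had 16.8 and 25.8 FPKM in MT, against 35.6 and 29.98 in D0.

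Because TCN1 carries cobalamin, the other genes of cobalamin transport and use were counted in the same fit, 12 of 14 with an entry and tested. In MT 4 were called higher and 2 lower than D0, in MC 0 and 1, and in TD 1 and 0. In Ctrl none was called by limma and 2 had an unadjusted p under 0.05. Of all tested genes, 9.38% were called higher and 18.1% lower in MT, and 6.34% and 11.3% in MC. In TD these shares were 5.01% and 8.9%, and in Ctrl 3.5% and 4.95%. The plasma carrier TCN2 had 13.98 and 15.7 FPKM in MT and 12.9 and 11.6 in MC, against 21.3 and 22.1 in D0, and it fell by 0.52 ± 0.17 in MT (limma, adjusted p = 0.0353) and by 0.78 ± 0.17 in MC (0.00684). CUBN, the receptor for cobalamin with intrinsic factor, rose by 1.08 ± 0.31 in MT (0.0209) and by 1.09 ± 0.27 in TD (0.0143). MMADHC, which sorts cobalamin between compartments, rose by 0.98 ± 0.31 in MT (0.0337). MTRR, the reductase that keeps methionine synthase active, fell by 1.07 ± 0.30 in MT (0.0193). Each of these cobalamin calls was lost without D0-1 or D0-2 (limma, adjusted p up to 0.161), and the calls in MT or MC also without 1 library of that condition.

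HMOX1, FTL and SLC40A1 are known targets of the oxidant-sensing factor NRF2, and 10 other such targets were counted beside them. In MT 0 were called higher and 2 lower than D0 and in both MC and TD 0 and 1, while in Ctrl 1 was called higher and 0 lower, with 2, 3, 1 and 3 of the 10 at an unadjusted p under 0.05 from limma. OSGIN1, a growth inhibitor, fell by 1.24 ± 0.19 in MT (limma, adjusted p = 0.000624), 0.89 ± 0.19 in MC (0.00713) and 0.63 ± 0.17 in TD (0.0225), and SLC7A11, the cystine importer, by 0.63 ± 0.20 in MT (0.034). Without D0-1 the call of OSGIN1 in MC was lost (0.0999) and that in TD likewise, as also without D0-2 or TD-4 (up to 0.307), and that of SLC7A11 without D0-1, D0-2, Ctrl-3 or MT-2 (up to 0.197). GCLC, the catalytic subunit of glutathione synthesis, rose in Ctrl by 0.73 ± 0.18 (0.0223), lost without D0-1, D0-2, Ctrl-1, Ctrl-3 or Ctrl-4 (up to 0.212). Of 11 acute phase genes, the class to which LCN2 belongs, 2 had an entry. ITIH4, a plasma inhibitor chain, had 9.64 and 4.28 FPKM in MT, 6.76 and 6.92 in MC, 8.13, 7.48, 7.98 and 12.5 in TD and 7.75, 10.2, 10.4 and 12.7 in Ctrl, against 1.29 and 0.917 in D0. It rose by 1.84 ± 0.32 in MT (0.00122), 1.90 ± 0.32 in MC (0.00136), 2.23 ± 0.27 in TD (0.000117) and 2.41 ± 0.27 in Ctrl (0.000129). Complement C3 fell by 0.78 ± 0.21 in MC (0.0224) and by 0.61 ± 0.18 in TD (0.0417), lost in both without either D0 library (up to 0.315). It had 1.55 and 0.857 FPKM in MT, against 1.36 and 1.14 in D0.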

How the data were processed

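Poly(A)-selected RNA of pig heart slices was sequenced by the authors, who called bases with CASAVA, aligned reads to Sscrofa11.1 with HISAT2. Per gene, they deposited FPKM, values scaled for length and depth rather than counts. Tool versions, the counting tool and its annotation are not stated there. In the labels, the extraction entry names another cell type and kit than the study's methods, the treatment entry names T3/Dex for every sample, and the label of MT-2 names T4, so groups follow the titles and culture entries. FPKM were used as deposited, as log2(FPKM + 1), over the 11527 genes that reached 1 FPKM in 2 or more libraries, in limma 3.58.1 under R 4.3.3 (lmFit, eBayes with trend, 1 mean per condition, Benjamini-Hochberg over all genes, threshold 0.05). DESeq2, which the study used, needs counts and was not run. Fold changes on this scale understate those of low genes. Every p-value of a single gene in the report is from this limma fit unless another setting is named, and all adjusted p-values are over all tested genes. Symbols came from the table for 11135 entries and from the reference names for 594. Members and lists were chosen with earlier results of these data known. The glucocorticoid targets and the setting without MC were added after seeing the data. Genes named are every member, per comparison up to 4 rises and 4 falls of the iron list, up to 2 of each other list, and the 3 nearest profiles of each member. HFE, SLC22A17, HBB, HBM and other single markers were named after their values were seen. Relative depth was solved from the FPKM steps of low genes (within 0.02 of whole reads for 99.1% to 100% of values), but these reads were used only as description. The limma step was tested on simulated data. The alternatives were another pseudocount (0.1), a filter of 5 FPKM and none, TPM scaling, limma arrayWeights, fits of the compared groups alone, a replicate block and each library left out. For some single genes only part of the alternatives that lost the call is named. Same-numbered libraries were not treated as pairs in the main fit, because the pig behind each is not named. Their r was above 0.1 in 7 of 22 pairs, which does not decide whether they share a pig. Hairpins were sought with Python 3.11.15.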

Additional observations from a re-analysis of the deposited data

Results flagged for a closer look

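In groups of 4, single libraries that lay far from the others were sought among 40 combinations of gene and condition. Chance gives about 5% of these, and the 2 found are no more than that share, so nothing is read from them. CPOX had 14.2 FPKM in TD-4, while the other TD libraries lay from 10.4 FPKM upward, close together. SLC39A8 had 0.806 FPKM in Ctrl-2, while the lowest Ctrl library had 0.524 FPKM. For a pair of iron genes that are not members, the fitted interaction of CTCM and T3/Dex was called. It takes MC as cultured without Dex, as its label has it, and whether the MC medium held Dex was not tested. For CD163 the interaction was -2.59 on the log2 scale (limma, adjusted p = 0.00593). For BMP6 it was 1.37 (adjusted p = 0.00465), and since BMP6 is listed at 0 in both MC libraries that size depends on the pseudocount. Both calls were lost with limma arrayWeights (0.228 for CD163 and 0.25 for BMP6). For CD163 the log2 difference was 2.15 for MC over Ctrl and -0.44 for MT over TD. For BMP6 these were -0.53 and 0.83, so the MC and the MT libraries both enter the interaction.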

How the results depend on the processing

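Counts of the 45 iron genes called depended on the processing, and no called value changed direction. In the order MT, MC, TD and Ctrl over D0 the counts were 10, 9, 8 and 5, and limma arrayWeights gave 3, 14, 17 and 20. For TD over Ctrl, MT over MC, MC over Ctrl, MT over TD and the interaction the counts were 1, 1, 1, 4 and 2, and arrayWeights gave 3, 0, 4, 0 and 0. Fits of the compared groups alone gave 2 in MT over D0, 11 in Ctrl over D0, 0 in MT over MC, 6 in MC over Ctrl and 0 in MT over TD. A filter of 5 FPKM gave 5 in TD over D0, 0 in MT over MC and 1 in the interaction. TPM gave 4 in MC over D0, 4 in TD over D0 and 2 in MC over Ctrl, and a pseudocount of 0.1 and no filter each gave 2 in MC over Ctrl. The cause was not tested.

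The replicate block gave 5 in MC over D0, 2 in TD over D0, 3 in Ctrl over D0 and 2 in MT over TD. Whether same-numbered libraries share a pig is not stated. Their r ran from -0.5 to 0.414 over 22 pairs. These r cannot settle it, since deviations from the mean of a group of 2 libraries mirror each other. Without the MC libraries, a setting chosen after seeing the data, the counts were 10 in MT, 8 in TD and 4 in Ctrl over D0, 1 in TD over Ctrl and 5 in MT over TD.

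With 1 library left out, the counts ranged from 5 to 14 in MT, 3 to 14 in MC, 2 to 13 in TD and 2 to 9 in Ctrl over D0, 1 to 2 in TD over Ctrl, 1 to 5 in MT over MC, 1 to 6 in MC over Ctrl, 3 to 10 in MT over TD and 2 to 8 in the interaction. Over D0, leaving out D0-1 or D0-2 gave 6 and 5 in MT, 3 and 3 in MC, 2 and 2 in TD and 3 and 2 in Ctrl. Leaving out MT-1 or MT-2 gave 14 in MC, 13 in TD and 9 in Ctrl over D0, 2 in TD over Ctrl, 6 in MC over Ctrl and 5 or 2 in MT over MC, and leaving out MT-1 gave 10 in MT over TD and 8 in the interaction. The counts were 3 in MC over D0 without MC-2, 4 in TD over D0 without TD-4, 3 in Ctrl over D0 without any 1 Ctrl library, 2 in MC over Ctrl without Ctrl-2, 3 there without TD-1 and 7 in MT over TD without TD-1. Where an arm kept 1 library, that library was assumed to vary like the other groups. Among single genes and the smaller lists, 999 of the values under an alternative stayed the same, 106 moved and 61 lost the call. Of the fits with 1 library left out, only the lowest and the highest for each result enter these counts. A call lost without many single libraries is therefore not counted once for each of them. For named iron genes, the same meant that direction and call were kept. For the smaller lists it meant a similar count, and for members a log2 change that moved by less than the SD within conditions. Whether the members kept their calls was not counted here.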
